A study of Arabidopsis thaliana with 24 samples.

Results

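The touch and rapid calcium response genes are 9 Arabidopsis thaliana genes, out of 37336 gene identifiers in each of the deposited tables. The list was set by gene name, with earlier results of these data known. They are the calmodulin gene CAM2 (AT2G41110, also called TCH1), the calmodulin-like genes CML24 (AT5G37770, TCH2), CML12 (AT2G41100, TCH3) and CML23 (AT1G66400), the cell wall enzyme genes XTH22 (AT5G57560, TCH4) and XTH23 (AT4G25810, XTR6), and the transcription factor genes WRKY40 (AT1G80840), ZAT10 (AT1G27730, STZ) and ZAT12 (AT5G59820, RHL41). RNA was sequenced from whole leaves of the reference accession Col-0 and of gtl1-4, labelled a knockout mutant of the trihelix DNA-binding factor GTL1. Each genotype was either kept well-watered, with the medium at 65 to 100% of its water content, or held in water deficit at 30%. Leaves were taken while emerging, 1 day after emergence, or while expanding, 14 to 15 days after it, from plants under 8 h of light per day. Each of the 8 groups had 3 replicates of 10 pooled plants, so single plants were not measured, and gtl1-4 is a single mutant line.

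Touch, wind, rain, handling and other sudden stimuli send calcium into the plant cytosol within moments. Calmodulins and calmodulin-like proteins bind that calcium and pass the signal on. The touch genes were found because their transcripts rise within minutes of handling, and WRKY40, ZAT10 and ZAT12 are textbook members of the same rapid response to cold, wounding, salt and high light. XTH22 and XTH23 encode xyloglucan endotransglucosylase/hydrolases, enzymes that cut and rejoin the xyloglucan strands of the primary wall, and wall loosening of this kind accompanies leaf growth.

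On the TAIR10.1 assembly, with RefSeq gene models, CML12 and CAM2 are neighbours on the same strand. CML12 spans chr2:17137037-17139700 and CAM2 spans chr2:17140183-17141431, both on the plus strand. CML24 lies at chr5:14997514-14999619 on the minus strand and CML23 at chr1:24770419-24771393 on the minus strand. XTH22 is at chr5:23307006-23308680 on the minus strand and XTH23 at chr4:13128394-13129927 on the plus strand. WRKY40 is at chr1:30383561-30385499 on the plus strand, ZAT10 at chr1:9648021-9649323 on the minus strand and ZAT12 at chr5:24102814-24103794 on the plus strand. CML24, CML12, CAM2 and WRKY40 overlap a gene on the opposite strand, and the labels do not say whether the counting used strand. The overlapping genes of CML24 and CML12 were listed at 0 in all 24 libraries. The overlapping partner AT2G41120 of CAM2, which shares 157 bases with it, lay between 65.05 and 170.8 normalized counts in emerging leaves and between 126 and 222 in expanding leaves, and the partner AT1G80850 of WRKY40, which shares 51 bases with it, lay between 263.6 and 410 and between 58.35 and 158, so the CAM2 and WRKY40 values are less certain than the others.

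The sequences just before the annotated starts were read because calmodulin-binding transcription activators (CAMTA factors), which carry calcium signals to many rapid response genes, bind CGCG cores such as CGCGT. Within 300 bases before the start, CGCGT was found on either strand in 4 of the 9 genes, CML24, CML23, CAM2 and ZAT12, against 7.89% of the windows of 27438 protein-coding genes. The closely related calcium sensors CML24 and CML23 both carry the form ACGCGT, which reads as CGCGT on each strand, and CAM2 carries 2 separate copies. The 120 bases before each start are shown 5′ to 3′ on the strand of the gene, with CGCGT and its reverse complement in capitals. They are CML24 (chr5:14999620-14999739, minus strand), CML23 (chr1:24771394-24771513, minus strand) and CAM2 (chr2:17140063-17140182, plus strand).
CML24: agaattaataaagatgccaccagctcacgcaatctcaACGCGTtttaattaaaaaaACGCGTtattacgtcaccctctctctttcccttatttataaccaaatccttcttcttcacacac
CML23: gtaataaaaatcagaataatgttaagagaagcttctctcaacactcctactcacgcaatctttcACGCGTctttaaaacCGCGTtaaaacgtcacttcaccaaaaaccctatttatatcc
CAM2: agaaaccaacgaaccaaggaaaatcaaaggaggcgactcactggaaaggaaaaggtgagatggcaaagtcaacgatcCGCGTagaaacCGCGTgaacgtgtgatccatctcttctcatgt

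The wall enzyme genes XTH22 and XTH23, which gave the largest called changes of the 9 genes in emerging gtl1-4 leaves, have no CGCGT in their windows. They hold TTGAC, the core bound by WRKY factors, once in XTH22 and 2 times in XTH23. That core is common, found in 50.4% of all windows and in 7 of the 9 genes. The GGTAAA box bound by GT factors such as GTL1 was in 17.3% of all windows and in 2 of the 9 genes, CML24 and ZAT10. The ABRE core ACGTG, bound by factors of the abscisic acid pathway, was in 25.6% of windows and in 4 of the 9, CML12, CAM2, WRKY40 and ZAT10. All motifs were searched on both strands, and a match is a description of letters only. The 300 bases before XTH22 (chr5:23308681-23308980, minus strand) and XTH23 (chr4:13128094-13128393, plus strand) follow, with TTGAC and its reverse complement in capitals.
XTH22: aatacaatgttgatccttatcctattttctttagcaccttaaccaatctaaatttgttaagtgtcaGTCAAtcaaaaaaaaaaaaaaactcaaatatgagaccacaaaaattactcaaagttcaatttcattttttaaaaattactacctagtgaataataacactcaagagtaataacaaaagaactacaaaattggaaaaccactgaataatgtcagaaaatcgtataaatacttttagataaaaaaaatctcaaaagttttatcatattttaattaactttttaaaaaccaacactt
XTH23: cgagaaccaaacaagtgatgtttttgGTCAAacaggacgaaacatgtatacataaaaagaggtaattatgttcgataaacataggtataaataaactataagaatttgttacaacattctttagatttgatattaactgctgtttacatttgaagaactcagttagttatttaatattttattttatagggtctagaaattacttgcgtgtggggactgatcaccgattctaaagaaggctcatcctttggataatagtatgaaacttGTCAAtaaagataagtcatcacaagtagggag

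The labelled tissues were checked on marker genes. The cell cycle gene CYCB1;1 lay between 500.5 and 771.5 normalized counts in emerging leaves and between 0 and 7.68 in expanding leaves, and of the 3 flower genes PI was listed at 0 in every library, while AG reached 3.87 in emerging and 16.9 in expanding leaves and AP3 3.18 and 4.39. GTL1 itself lay between 300.9 and 384.5 in well-watered and between 151 and 215.5 in water-deficit emerging gtl1-4 leaves, against 1379 to 1511 and 954 to 1171 in Col-0. In expanding leaves it lay between 236 and 322 and between 123 and 157 in gtl1-4, against 739.5 to 951 and 421 to 571 in Col-0. The libraries held 14.7 to 43.5 M recovered counts in emerging and 14.9 to 27.1 M in expanding leaves. Chloroplast genes took 17.4 to 24.1% and 62.2 to 78.6% of it, which left 11.4 to 32.8 M and 4.74 to 10 M counts for nuclear genes, so the expanding leaf values of low genes rest on few reads.

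Emerging leaves under water deficit held less XTH22 transcript than well-watered ones in both genotypes, and less XTH23 in gtl1-4, whereas XTH23 in Col-0 did not pass the test. In Col-0, XTH22 fell to 33.1% of its well-watered level, CML24 to 68.3% and CAM2 to 62.4%. In gtl1-4, XTH22 fell to 16.3%, XTH23 to 7.74% and CML24 to 59.2%, of which the XTH23 value is imprecise, because its water-deficit mean was 3.14 normalized counts. None of the 9 genes was called higher under water deficit in either genotype. Each test was limma's moderated test on log2(value + 1), fitted over genes averaging 10 or more normalized counts and adjusted with Benjamini-Hochberg at 0.05. Fold changes, and percentages of a level taken from them, are on that scale, which understates the change of low genes, and in whole leaves fewer cells of a type cannot be told apart from less RNA per cell.

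XTH22, first known as the touch gene TCH4, had the smallest adjusted p of the 9 genes in emerging leaves of both genotypes. The well-watered Col-0 libraries held 574, 691 and 692 normalized counts (652 ± 67.7, SD, n = 3). The water-deficit Col-0 libraries held 180.3, 216 and 253 (216 ± 36.4, SD, n = 3). Every water-deficit library was below every well-watered one, and the log2 fold change was -1.60 (SE 0.17, limma adjusted p 4.37e-05). In gtl1-4 the well-watered libraries held 514, 669 and 558 (580.4 ± 79.5, SD, n = 3), and the water-deficit libraries 105, 100.5 and 77.2 (94.3 ± 15.0, SD, n = 3). The groups again stood apart, with a log2 fold change of -2.61 (SE 0.17, limma adjusted p 1.17e-06). Both calls held under all 25 alternative settings, with adjusted p of at most 0.00114 in Col-0 and 0.000196 in gtl1-4.

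XTH23, the closest relative of XTH22 on this list, was lower in the same libraries. Well-watered Col-0 leaves gave 103, 83.8 and 110.2 normalized counts (98.9 ± 13.6, SD, n = 3) and water-deficit leaves 17.3, 25.1 and 42.7 (28.4 ± 13.0, SD, n = 3). These groups did not overlap, but the log2 fold change of -1.85 (SE 0.62) missed the threshold (limma adjusted p 0.0627). It was called without gtl1-4 water-deficit replicate 1 (adjusted p 0.00881) and without gtl1-4 water-deficit replicate 2 (0.0391), libraries that belong to neither group and act only through the shared estimate of spread. It was also called in 6 of 12 other alternatives, with pseudocount 5, quantile scaling, array weights, only the 2 groups compared, limma-voom weights and without the 2 libraries farthest from their groups, at adjusted p from 0.00595 to 0.0386. In gtl1-4 the well-watered libraries held 38.6, 52.1 and 31.8 (40.8 ± 10.4, SD, n = 3), and the water-deficit libraries 0, 5.53 and 3.90 (3.14 ± 2.84, SD, n = 3). The groups stood apart, and 1 water-deficit library was listed at 0. The log2 fold change of -3.69 (SE 0.62, limma adjusted p 0.00179) was called in all 24 alternatives that could give a value.

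CML24, a calcium sensor of the calmodulin-like family, gave a smaller decrease. Its well-watered Col-0 libraries held 442, 449 and 419.6 normalized counts (437 ± 15.4, SD, n = 3) and its water-deficit libraries 315, 296 and 285 (298 ± 15.0, SD, n = 3). The log2 fold change of -0.55 (SE 0.16) passed at limma adjusted p 0.0344, and the call was lost when any 1 of these 6 libraries was left out, at adjusted p of 0.0717 to 0.105. In gtl1-4 the values were 380.2, 454 and 458 (431 ± 43.8, SD, n = 3) when watered and 311, 197 and 267 (258 ± 57.2, SD, n = 3) in deficit. That log2 fold change of -0.76 (SE 0.16, limma adjusted p 0.00839) stayed called with each library left out in turn, but not with only the 2 groups compared fitted (adjusted p 0.0525). CML24 groups did not overlap in either genotype.

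CAM2, a calmodulin gene proper, held 758, 759 and 714 normalized counts in well-watered Col-0 (744 ± 26.0, SD, n = 3) and 405, 572 and 429.8 in water deficit (469 ± 89.9, SD, n = 3). The log2 fold change was -0.68 (SE 0.18, limma adjusted p 0.0223). The call was lost without any of the well-watered Col-0 replicates 1, 2 and 3 (adjusted p 0.0766, 0.0719 and 0.0607) or without water-deficit Col-0 replicate 1 (0.0993) or 3 (0.0642). In gtl1-4 the libraries held 638, 577 and 811 when watered (676 ± 121, SD, n = 3) and 531, 344 and 533 in deficit (469.5 ± 109, SD, n = 3). Those groups did not overlap, yet the log2 fold change of -0.54 (SE 0.18) missed the threshold (limma adjusted p 0.0796).

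CML12 and CML23, the remaining calcium sensors, were variable within groups. CML12 lay at 33.3, 34.4 and 29.0 in well-watered Col-0 (32.2 ± 2.84, SD, n = 3) but at 72.8, 7.84 and 0 in water deficit (26.9 ± 40.0, SD, n = 3). In gtl1-4 it lay at 22.4, 28.9 and 125 when watered (58.7 ± 57.5, SD, n = 3) and at 2.00, 14.7 and 4.68 in deficit (7.14 ± 6.72, SD, n = 3). A single library stood high in each of the groups with a large SD, and neither log2 fold change passed, at -1.93 (limma adjusted p 0.301) and -2.78 (limma adjusted p 0.151). CML23 ranged from 36.9 to 111 over the 12 libraries with all groups overlapping, and its log2 differences of -0.09 and 0.03 were within their SE of 0.38.

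The 3 transcription factor genes were near the floor in emerging leaves and were not tested there. WRKY40 was between 0 and 2.39 in 11 libraries and at 15.7 in gtl1-4 water-deficit replicate 2. ZAT10 lay between 0 and 7.37 and ZAT12 between 0 and 14.0. In all, 6 of the 9 genes passed the filter of a mean of at least 10, and 3 of the 9 were called lower in Col-0, where 6.69% of the 18529 genes tested were called lower. In gtl1-4 3 of the 9 were called lower, where 3.9% of all genes were. The groups did not overlap, with the water-deficit libraries lower, for 4 of the 9 genes in Col-0, against 18.5% of all genes tested, and for 5 in gtl1-4, against 13.3%. The median log2 fold change of the 6 tested genes was -1.14 in Col-0 and -1.68 in gtl1-4, while the median of all genes tested was 0.00 in both.

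**Figure D1:**
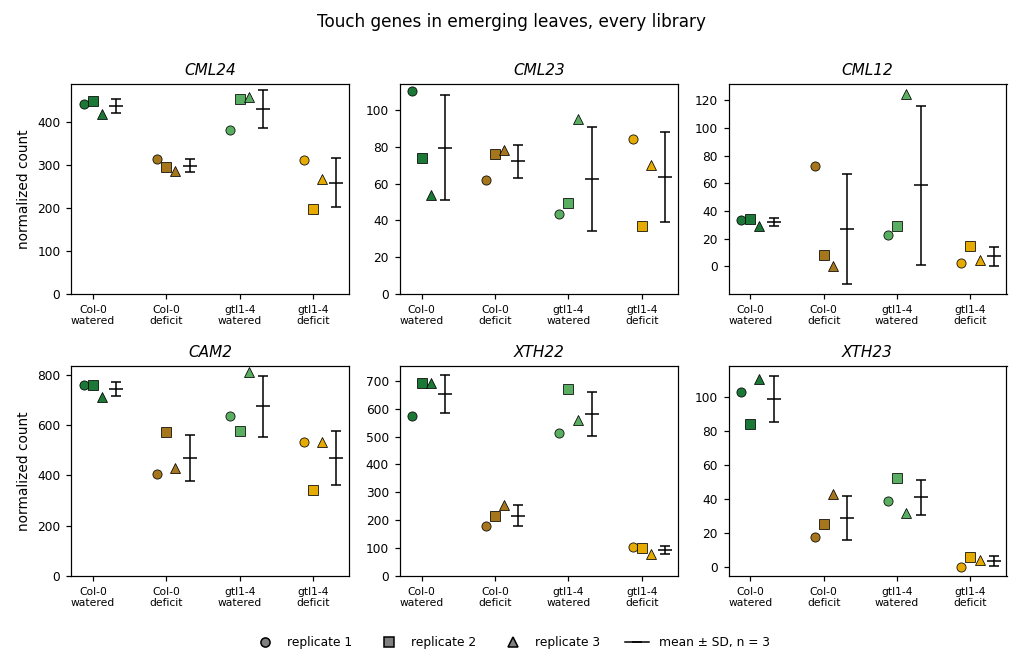
Normalized counts (vertical axes) of the 6 tested touch genes in the 12 emerging leaf libraries, by genotype and water supply, with symbols for replicates 1 to 3 and bars for the mean ± SD (n = 3). XTH22 water-deficit libraries sit at 253 or lower and its well-watered libraries at 514 or higher, whereas the groups of CML23 overlap.

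Between genotypes, XTH22 was the touch gene called in emerging leaves, under water deficit. There the gtl1-4 libraries (77.2 to 105) were all below the Col-0 libraries (180.3 to 253), at 43.9% of the Col-0 level on the log scale. The log2 difference was -1.19 (SE 0.17, limma adjusted p 0.0041), which made 1 of the 9 genes called lower, against 0.054% of all genes. It stayed called when each library was left out in turn, at adjusted p of at most 0.0372, but not when only the 2 groups compared were fitted (0.193) or with limma-voom weights (0.0692). XTH23 was also below Col-0 in every library there, 0 to 5.53 against 17.3 to 42.7, so that 2 of the 9 genes had separate groups in this direction, against 3.83% of all genes, and its log2 difference of -3.12 (SE 0.62) had an adjusted p of 0.0667 in limma, which became 0.0288 without gtl1-4 water-deficit replicate 2.

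In well-watered emerging leaves none of the 9 genes was called, and 0.162% of all genes were. XTH22 differed by -0.17 on the log2 scale (SE 0.17, limma adjusted p 0.89), with overlapping groups. XTH23 was lower in every gtl1-4 library, 31.8 to 52.1 against 83.8 to 110.2, the 1 of the 6 tested touch genes with separate groups in this direction, as 8.53% of all genes tested had. Among the untested genes ZAT12 was also separate, at 0 to 1.06 in gtl1-4 against 5.37 to 7.99 in Col-0. For XTH23 the log2 difference of -1.27 (SE 0.62) did not pass (limma adjusted p 0.739). The order of XTH22 group means was therefore well-watered Col-0, well-watered gtl1-4, water-deficit Col-0 and water-deficit gtl1-4, of which the first 2 did not differ beyond their spread. XTH23 followed the order well-watered Col-0, well-watered gtl1-4, water-deficit Col-0 and water-deficit gtl1-4 too, where the middle neighbours overlapped. These comparisons share groups and are not independent of each other.

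The test of the difference between the water responses of the genotypes called 0 of the 18529 genes in limma, and 987 (5.33%) had an unadjusted p under 0.05. XTH22 was the 1 touch gene among these, with a difference of -1.02 (SE 0.25, unadjusted p 0.000861, limma adjusted p 0.889). For XTH23 the difference was -1.84 (SE 0.88, limma adjusted p 0.889). The larger decrease of both genes in gtl1-4 is thus a description and was not established by this test.

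The relatives of the wall enzymes gave similar values. Of 9 further genes of the same group of the XTH family, 3 could be tested in emerging leaves and 2 were called lower in both genotypes. XTH16 went from 1468 ± 122 to 448 ± 38.4 normalized counts in Col-0 (SD, n = 3, log2 fold change -1.71, limma adjusted p 8.57e-07) and by -1.44 in gtl1-4 (limma adjusted p 4.9e-06). XTH24, also called MERI5B, went from 243 ± 17.3 to 36.0 ± 14.3 in Col-0 (SD, n = 3, -2.79, limma adjusted p 0.00302) and by -2.87 in gtl1-4 (limma adjusted p 0.00336). XTH15 had log2 fold changes of -2.76 and -2.48 without a call. Unlike XTH22, none of the 3 relatives was called between genotypes, with XTH16 at 0.16 and XTH24 at -0.21 under water deficit, a contrast between genes that was not itself tested.

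Calcium sensor relatives were examined next. Of the 6 other calmodulin genes, all tested, only CAM4 was called, higher in both genotypes at log2 0.45 in Col-0 (limma adjusted p 0.0135) and 0.37 in gtl1-4 (limma adjusted p 0.0491), which is opposite in sign to CAM2. Leaving out well-watered replicate 3 or water-deficit replicate 2 of Col-0 ended the former call (adjusted p up to 0.0755), and the latter held in 2 of 12 omissions. The median log2 fold change of the 6 was -0.21 in Col-0 and -0.01 in gtl1-4. Of 11 other calmodulin-like genes 5 could be tested and 0 were called in limma, with medians of -0.44 in Col-0 and -0.18 in gtl1-4.

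Of the CAMTA factor genes, 6 were tested, and CAMTA6 was higher in both genotypes (0.70, limma adjusted p 0.00153, and 0.54, limma adjusted p 0.012) and CAMTA4 in Col-0 (0.59, limma adjusted p 0.0308). Of 18 other rapid stress genes, 11 were tested and 1, the cold response regulator CBF3, was called, higher at 1.67 in Col-0 and 2.15 in gtl1-4 (limma adjusted p 0.0312 and 0.0112). Among 8 WRKY genes, all tested, WRKY11 was higher (0.76, limma adjusted p 0.0069) and WRKY18, the partner of WRKY40, was lower (-1.01, limma adjusted p 0.0457) in Col-0. WRKY60, the third gene of that subgroup, was higher in gtl1-4 than in Col-0 under water deficit, at 166.9 ± 31.2 against 51.9 ± 5.34 (SD, n = 3, log2 difference 1.65, limma adjusted p 0.00229). Of 14 mechanosensing and calcium transport genes, all tested, the calcium pump gene ACA8 was higher in Col-0 (0.66, limma adjusted p 0.0286) and the vacuolar exchanger gene CAX3 in gtl1-4 (3.08, limma adjusted p 0.0177). Of 8 wound jasmonate genes 6 were tested, and LOX2, an enzyme of jasmonate synthesis, was higher in both (0.90, limma adjusted p 0.00822, and 0.75, limma adjusted p 0.0283). With 1 library left out at a time, the Col-0 calls of WRKY18, CBF3, CAMTA4 and ACA8 held in 5, 7, 8 and 7 of 12 omissions, and the others held in 8 or more. The rapid stress list as a whole had a median log2 fold change of 0.06 in Col-0 and -0.14 in gtl1-4, against -2.76 and -2.48 for the 3 XTH relatives.

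Markers that bear on harvest and tissue moved with the water supply too. Of 9 circadian clock genes 8 were tested in emerging leaves, and 3 were called higher and 1 lower in each genotype. The morning gene LHY was lower, with log2 fold changes of -0.87 in Col-0 and -1.19 in gtl1-4. PRR9 (0.70 and 0.66) and GI (0.57 and 0.63) were higher in both, PRR7 in Col-0 (0.75) and PRR5 in gtl1-4 (1.50). The summed clock list lay at 4509 to 4902 normalized counts in well-watered and 5815 to 6679 in water-deficit Col-0, and at 4730 to 5766 and 5751 to 7085 in gtl1-4. The root gene PYK10 was higher in water-deficit Col-0 (log2 1.60, limma adjusted p 0.0444, held in 7 of 12 omissions). The summed list of 3 root genes lay at 35.4 to 135 in well-watered and 172 to 251 in water-deficit Col-0, while the root gene EXP7 was at 0 in all 12 libraries and CASP1 at 5.33 or lower. In gtl1-4 the root list lay at 40.0 to 129 when watered and 52.25 to 123.5 in deficit, below Col-0 in deficit. PYK10, the 1 root gene tested, had a log2 difference of -1.14 between genotypes in deficit, without a call. The part of either marker set in the results for the touch genes was not tested.

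In expanding leaves CML12 fell under water deficit to 22.8% of its well-watered level in Col-0 and to 29.1% in gtl1-4. CAM2, its neighbour on chromosome 2, fell to 31.2% and 53.3%. WRKY40 and ZAT10 had lower values in gtl1-4 too, but both reached the filter only through their well-watered groups, which favours a decrease, and 1 well-watered library dominated their values. Of the wall enzymes XTH22 was not called in any comparison and XTH23 was at 5.95 normalized counts or lower in all 12 libraries and could not be tested. Tables were scaled separately by leaf age, so no level was tested between ages.

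CAM2 gave the most even values. The well-watered Col-0 libraries held 97.7, 126 and 107 normalized counts (110.4 ± 14.5, SD, n = 3) and the water-deficit libraries 34.3, 27.1 and 40.7 (34.0 ± 6.82, SD, n = 3). The groups stood well apart, with a log2 fold change of -1.68 (SE 0.22, limma adjusted p 0.000131) that was called under all 25 alternatives. In gtl1-4 the libraries held 77.9, 74.8 and 101 when watered (84.6 ± 14.4, SD, n = 3) and 46.5, 39.5 and 47.1 in deficit (44.3 ± 4.22, SD, n = 3). The log2 fold change there was -0.91 (SE 0.22, limma adjusted p 0.0235). It missed the threshold without well-watered gtl1-4 replicate 1 (adjusted p 0.0538) or 3 (0.119) and without water-deficit gtl1-4 replicate 1 (0.066), 2 (0.118) or 3 (0.0541).

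CML12, which encodes a calmodulin-like protein with extra calcium-binding hands, held 262, 232 and 118 normalized counts in well-watered Col-0 (204 ± 76.0, SD, n = 3) and 37.0, 45.5 and 47.6 in water deficit (43.4 ± 5.65, SD, n = 3). All water-deficit libraries were below all well-watered ones, and the log2 fold change of -2.13 (SE 0.44, limma adjusted p 0.00421) was called under all 25 alternatives. In gtl1-4 the libraries held 381, 148 and 177 when watered (235 ± 127, SD, n = 3) and 139, 34.3 and 49.4 in deficit (74.4 ± 56.8, SD, n = 3). That log2 fold change of -1.78 (SE 0.44, limma adjusted p 0.0254) missed the threshold without well-watered gtl1-4 replicate 1 (adjusted p 0.127) and without water-deficit gtl1-4 replicate 2 (0.152) or 3 (0.101). Replicate 1 was the highest library in both gtl1-4 groups.

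CML24 and CML23 did not pass in expanding leaves. CML24 lay at 113, 47.6 and 29.6 in well-watered Col-0 (63.5 ± 43.9, SD, n = 3) and at 73.9, 29.5 and 42.4 in deficit (48.6 ± 22.8, SD, n = 3), a log2 fold change of -0.26 (SE 0.46, limma adjusted p 0.755). In gtl1-4 it lay at 149, 49.4 and 87.5 when watered (95.4 ± 50.4, SD, n = 3) and at 68.9, 41.2 and 47.1 in deficit (52.4 ± 14.6, SD, n = 3), which overlapped. CML23 lay between 3.49 and 23.0 in 11 libraries and at 63.9 in well-watered Col-0 replicate 1, and its log2 fold changes were -1.02 (SE 0.78) in Col-0 and -0.17 (SE 0.78) in gtl1-4.

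XTH22 in expanding leaves spread widely among well-watered gtl1-4 replicates. Well-watered Col-0 held 19.2, 13.1 and 35.7 normalized counts (22.7 ± 11.7, SD, n = 3) and water-deficit Col-0 5.28, 3.69 and 7.79 (5.59 ± 2.07, SD, n = 3). Well-watered gtl1-4 held 256, 11.3 and 117 (128 ± 123, SD, n = 3) and water-deficit gtl1-4 17.4, 26.6 and 9.18 (17.7 ± 8.71, SD, n = 3). The Col-0 groups did not overlap and the gtl1-4 groups did, and neither log2 fold change passed, at -1.78 (SE 0.80, limma adjusted p 0.154) and -2.05 (SE 0.80, limma adjusted p 0.187). Without well-watered gtl1-4 replicate 2, the low library of its group, both were called (adjusted p 0.0267 and 0.00306).

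The transcription factors WRKY40, a repressor in basal defence and abscisic acid signalling, and ZAT10, a zinc finger repressor of the salt and drought response, reached the filter through their well-watered groups alone, so their calls are given as a description. WRKY40 held 13.8, 13.1 and 7.84 normalized counts in well-watered Col-0 (11.6 ± 3.27, SD, n = 3) and 9.24, 0 and 1.73 in deficit (3.66 ± 4.91, SD, n = 3), a log2 fold change of -2.02 without a call (SE 0.85, limma adjusted p 0.131, and 0.0471 without water-deficit Col-0 replicate 1). In gtl1-4 it held 91.0, 15.5 and 26.7 when watered (44.4 ± 40.8, SD, n = 3) and 5.81, 3.43 and 1.15 in deficit (3.46 ± 2.33, SD, n = 3). These groups did not overlap, and the log2 fold change was -3.11 (SE 0.85, limma adjusted p 0.0463). Without well-watered gtl1-4 replicate 1, the high library, it was -2.41 at an adjusted p of 0.241, and it was called in 3 of the 12 omissions of 1 library.

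ZAT10, like WRKY40, was highest in well-watered gtl1-4 replicate 1. It held 41.5, 16.7 and 12.2 in well-watered Col-0 (23.5 ± 15.8, SD, n = 3) and 10.6, 7.38 and 6.93 in deficit (8.29 ± 1.98, SD, n = 3), which did not overlap but did not pass (log2 fold change -1.23, SE 0.73, limma adjusted p 0.286). In gtl1-4 it held 161, 21.2 and 27.3 when watered (69.9 ± 79.2, SD, n = 3) and 16.6, 5.15 and 2.30 in deficit (8.01 ± 7.57, SD, n = 3). The log2 fold change of -2.72 (SE 0.73, limma adjusted p 0.0417) became -1.82 at an adjusted p of 0.217 without well-watered gtl1-4 replicate 1, and it was called in 5 of the 12 omissions. ZAT12, a zinc finger regulator of the oxidative and light stress response, lay between 0 and 7.68 in all 12 libraries, was listed at 0 in all 3 water-deficit gtl1-4 libraries, and was not tested.

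Of the 9 genes 7 passed the filter in expanding leaves. In Col-0, 2 of the 9 were called lower, where 7.32% of 16522 genes were called lower. In gtl1-4, 4 of the 9 were called lower, where 2.4% of all genes were, but without WRKY40 and ZAT10, which passed the filter only through the groups where they were high, the count was 2, CAM2 and CML12. Water-deficit libraries all lay below well-watered ones for 4 genes in each genotype, against 14.8% of all genes in Col-0 and 13.5% in gtl1-4, and without WRKY40 and ZAT10 for 3 in Col-0 and 2 in gtl1-4. The count in gtl1-4 fell to 0 without well-watered replicate 1 or without water-deficit replicate 2 or 3 of that genotype, to 1 without well-watered replicate 3, and to 2 without water-deficit replicate 1, without well-watered Col-0 replicate 2 or without water-deficit Col-0 replicate 3.

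**Figure D2:**
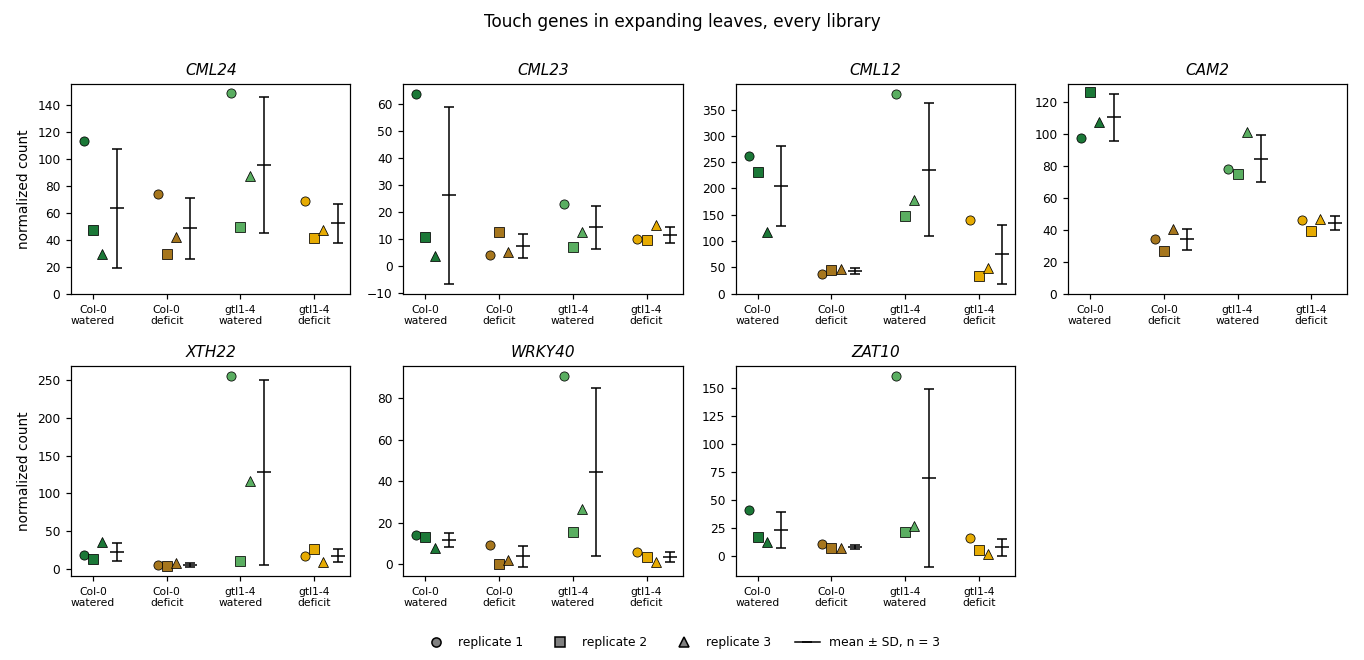
Normalized counts (vertical axes) of the 7 tested touch genes in the 12 expanding leaf libraries, with symbols for replicates 1 to 3 and bars for the mean ± SD (n = 3). Well-watered gtl1-4 replicate 1 is the highest library for CML24, CML12, XTH22, WRKY40 and ZAT10, while the values of CAM2 are even within each group.

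Between genotypes no touch gene was called in expanding leaves, well-watered or in deficit, where 1.34% and 0.169% of all genes were called. XTH22 had a log2 difference of 1.72 in well-watered leaves (SE 0.80, limma adjusted p 0.331), the 1 touch gene with an unadjusted p under 0.05, which 14.7% of all genes had. Without well-watered gtl1-4 replicate 2 it was called, at 2.99 and an adjusted p of 0.0251. Under water deficit every gtl1-4 library (9.18 to 26.6) lay above every Col-0 library (3.69 to 7.79), as 7.11% of all genes did in that direction. These values rest on few reads, and the log2 difference of 1.44 (SE 0.80) did not pass (limma adjusted p 0.831). WRKY40 was the 1 touch gene with every well-watered gtl1-4 library above every Col-0 library, as 8.79% of all genes had. WRKY40 and ZAT10 had log2 differences of 1.50 and 1.12 there without a call (limma adjusted p 0.435 and 0.504). WRKY40 reached the filter through its well-watered groups, mostly that of gtl1-4 (44.4 against 11.6 normalized counts in Col-0). This favours a higher value in gtl1-4, so its separation is given as a description. The difference of the water responses called 0 of 16522 genes in limma, with 948 (5.74%) at an unadjusted p under 0.05. CAM2 was the 1 touch gene among those, at 0.77 (SE 0.31, unadjusted p 0.0245, limma adjusted p 0.845).

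**Figure D3:**
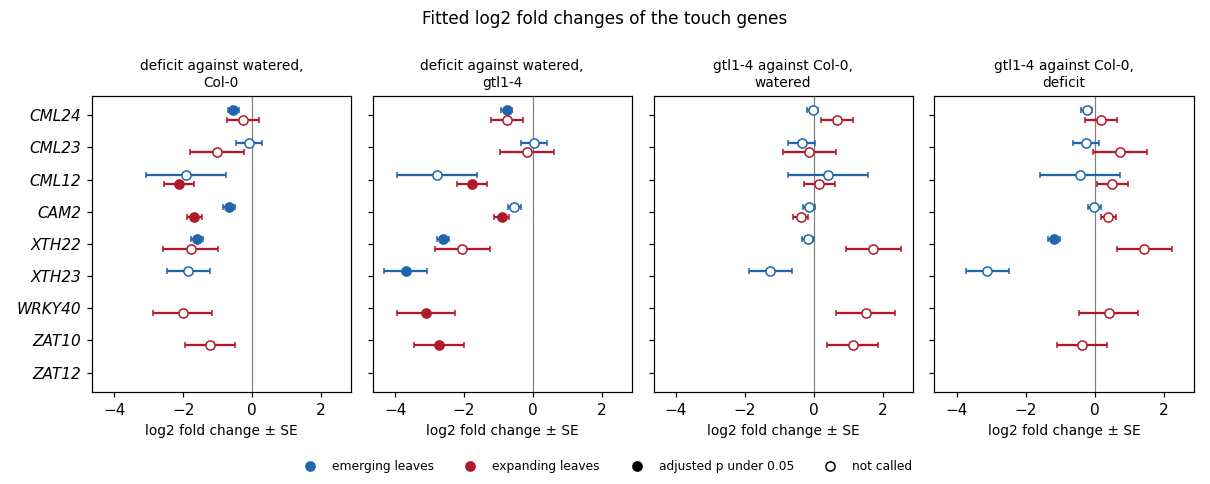
Fitted log2 fold changes (horizontal axes) with their SE for each touch gene in 4 comparisons, in emerging (blue) and expanding (red) leaves, where filled points had an adjusted p under 0.05 and genes below the filter have no point. All filled points lie to the left of 0, and XTH22 under water deficit is at -1.19 in emerging and 1.44 in expanding leaves between genotypes. The value of 1.44 rests on few reads and was not called.

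Among relatives in expanding leaves, calmodulin genes fell in Col-0 together with CAM2. Of the 6, CAM3 (-0.67, limma adjusted p 0.00182), CAM7 (-0.55, limma adjusted p 0.0107) and CAM5 (-0.42, limma adjusted p 0.0406) were lower, of which CAM5 held in 4 of 12 omissions of 1 library. In gtl1-4 0 were called in limma, and the median log2 fold change of the 6 was -0.06, against -0.33 in Col-0. The calmodulin-like gene CML42, which acts in trichomes and defence, was the 1 of 4 tested that was called, at -2.16 in Col-0 (limma adjusted p 0.0137). XTH24 was again lower, from 341.5 ± 52.8 to 9.88 ± 8.71 in Col-0 (SD, n = 3, -5.76, limma adjusted p 0.000103) and from 122.5 ± 48.2 to 7.16 ± 1.75 in gtl1-4 (SD, n = 3, -3.87, limma adjusted p 0.00479).

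WRKY18 was lower in both genotypes (-1.29, limma adjusted p 0.0428, and -2.11, limma adjusted p 0.00479), WRKY46 in Col-0 (-2.37, limma adjusted p 0.00473), and WRKY60 in Col-0 (-1.64, limma adjusted p 0.0362). Of the 12 rapid stress genes tested the kinase gene MPK3 was called, lower in Col-0 (-0.63, limma adjusted p 0.00414), and 0 were called in gtl1-4 in limma. The median log2 fold change of the 12 was -0.43 in Col-0 and -0.50 in gtl1-4. Of 11 calcium channel and transporter genes tested, the vacuolar exchanger gene CAX1 (-0.68, limma adjusted p 0.00122) and the osmotic calcium channel gene OSCA1 (-0.48, limma adjusted p 0.0354) were lower in Col-0, and the glutamate receptor-like gene GLR3.6 was higher (0.70, limma adjusted p 0.0408). The wound jasmonate gene OPR3 was lower in gtl1-4 (-1.25, limma adjusted p 0.0403). With 1 library left out at a time, the Col-0 calls of WRKY18, WRKY60, OSCA1 and GLR3.6 held in 4, 6, 8 and 4 of 12 omissions and that of OPR3 in 7.

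Markers moved with water here as well. The clock gene LHY was lower in both genotypes, at log2 fold changes of -1.07 and -1.21, CCA1 was higher in Col-0 (0.44, limma adjusted p 0.0447, a call that held in 3 of 12 omissions of 1 library and 7 of 13 other alternatives), and the summed clock list lay at 2487 to 2704 in well-watered and 2994 to 3370 in water-deficit Col-0. In gtl1-4 it lay at 2681 to 3053 and 2981 to 3094, and its part in these results was not tested. Of the 2 guard cell genes KAT1 was lower in both genotypes (-0.90 and -1.25), while MYB60 had log2 fold changes of 0.89 in Col-0 and -0.32 in gtl1-4 without a call. Of the 3 green leaf genes RCA was lower in Col-0 (-0.77), and RBCS1A (-0.25) and LHCB2.1 (-0.05) were not called. The trichome gene TTG2 was higher in Col-0 (3.11), where the other, GL1, was at 1.66 normalized counts or lower in all 12 libraries. The summed list of 3 flower genes lay at 1.54 to 13.1 in well-watered and 0 to 0.866 in water-deficit Col-0, and at 10.55 to 21.2 and 0.83 to 2.30 in gtl1-4. The part of these markers was not tested either.

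**Figure D4:**
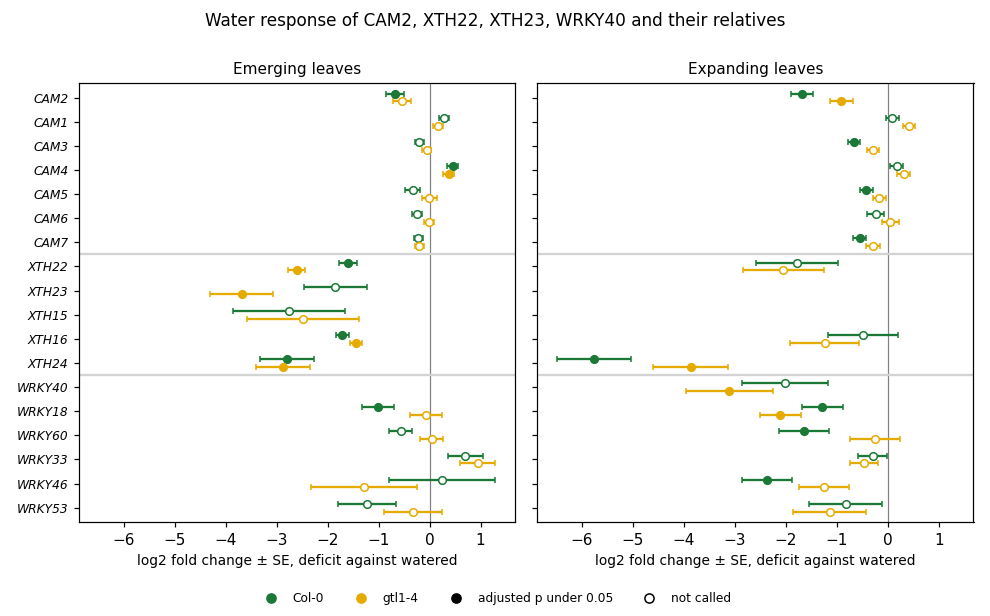
Log2 fold changes of water deficit against well-watered (horizontal axes) with their SE for CAM2, XTH22, XTH23, WRKY40 and their family relatives, in Col-0 (green) and gtl1-4 (yellow), filled where the adjusted p was under 0.05. CAM4 lies at 0.45 and CAM2 at -0.68 in emerging Col-0 leaves, and XTH24 lies lowest among the expanding leaf points, at -5.76 in Col-0.

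Because handling can raise these genes within minutes, their spread among replicates was described library by library. In expanding leaves well-watered gtl1-4 replicate 1 was the highest of its group for 6 of the 7 tested touch genes, with a median of 1.23 on the log2 scale above its mates. WRKY40 and ZAT10 are among these 6 and reached the filter only through their well-watered groups, which favours a high library there. In that library 10 of the 12 rapid stress genes were also the highest of the group (median 1.0), whereas 7 wound jasmonate genes had a median of 0.08. Of all 16522 genes tested, 5547 were the highest of the group in that library. Well-watered gtl1-4 replicate 2 was the lowest, with medians of -1.19 for the touch genes and -0.71 for the rapid stress genes but 1.03 for the wound jasmonate genes. Well-watered Col-0 replicate 1 stood 0.66 above its mates and replicate 3 lay at -1.05. Over all tested genes these medians were between -0.01 and 0.02, and in emerging leaves the touch gene medians were between -0.30 and 0.28. What set these libraries apart was not tested.

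**Figure D5:**
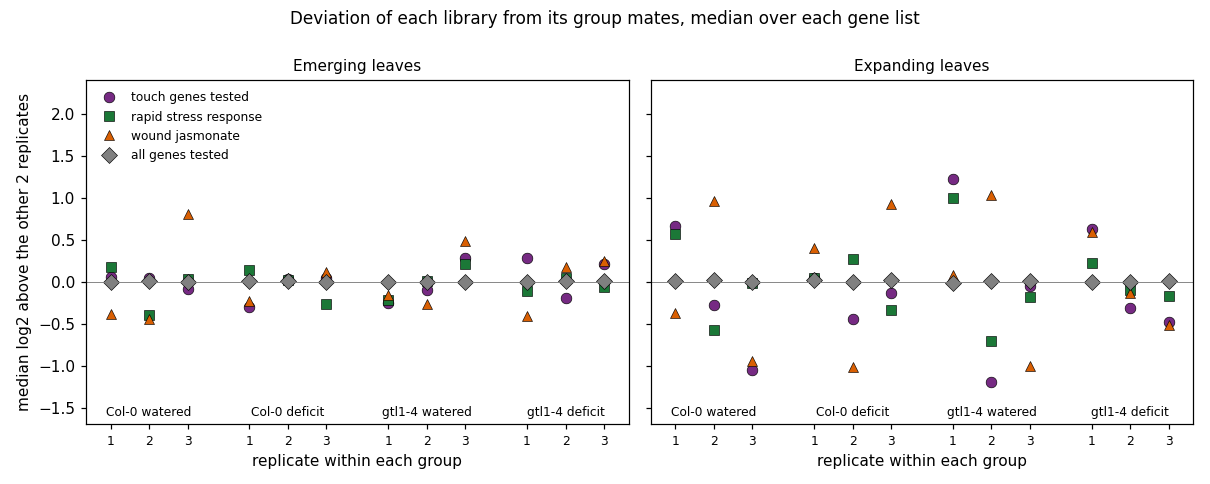
Median log2 deviation of each library from the other 2 replicates of its group (vertical axis) over the tested touch genes, the rapid stress genes, the wound jasmonate genes and all genes, for emerging (left) and expanding (right) leaves. Touch gene medians stay between -0.30 and 0.28 in emerging leaves and reach -1.19 and 1.23 in expanding leaves, while all genes stay near 0.

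Correlations among the touch genes, with group means removed, are given as a description over the 12 libraries of each age. In expanding leaves 19 of 21 gene pairs had a positive correlation, with a median r of 0.44 and a range of -0.31 to 0.81. In emerging leaves 4 of 15 pairs were positive, with a median of -0.12 and a range of -0.74 to 0.76. Among 12027 other genes of the expanding leaf table, ACLA-1, a subunit of ATP-citrate lyase, was most like the mean profile of the touch genes (r 0.919), followed by ACS6, an enzyme of ethylene synthesis (0.913), LGT8 (0.893), AT4G28450 (0.888) and AT2G18090 (0.879). In the emerging leaf table the nearest of 16162 were CPL1 (0.947), AT1G53875 (0.943), AT5G43440 (0.934), AT5G57300 (0.932) and AT2G35830 (0.929). The touch genes were not brought to equal spread before averaging, so CML12 (SE 1.16) weighs most in the emerging leaf profile. In the expanding leaf profile WRKY40 (SE 0.85), XTH22 (0.80), CML23 (0.78) and ZAT10 (0.73) weigh most and CAM2 (0.22) least. With few positive pairs in emerging leaves, the emerging leaf profile does not stand for the touch genes as a set. These values rank many genes over 12 libraries that share their depth and handling, so they carry no test.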

How the data were processed

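RNA from 24 libraries was analysed, 12 at each leaf age. Per the submitters' processing notes, reads were handled with STAR and RSEM, with bcl2fastq, Trimmomatic, Trim Galore and FastQC, on the TAIR10 build, with no versions stated. The authors deposited 1 table for each leaf age holding a normalized signal, in which the counts of a library share 1 scaling factor. How that factor was set is not stated in the labels or files. In each library 96.5 to 97.9% of the values below 2000 reads were whole multiples of a common step within a tolerance of 0.002, and depth was recovered from that step. Because the rest are fractional, as estimated counts are, count models were not applied. Scaling differed between the tables, so each leaf age was fitted on its own and nothing was tested between ages.

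From the deposited values, log2(value + 1) was fitted in limma 3.58.1 (R 4.3.3) with the 4 groups of an age together and a variance trend, for genes averaging 10 or more, in 5 comparisons per age. Benjamini-Hochberg adjustment ran over 18529 genes in emerging and 16522 in expanding leaves, with calls at 0.05. The procedure was run on simulated data with known changes in the water-deficit Col-0 group, and the outcome is not reported here. Those data were drawn gene by gene, so they hold no shifts shared by the genes of a library. Nothing says whether replicates of 10 pooled plants were grown apart, so p-values measure the spread between these samples.

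The members and the companion lists were chosen with earlier results of these data known. All 9 genes are given, and from each companion list up to 4 called genes per comparison by adjusted p. The 5 genes most like the mean centred profile at each age, with a mean of at least 50, are named. Alternatives covered pseudocounts, filters, scaling, weights, the fitted groups, a replicate block and each library left out. Sequences were read from TAIR10.1 with RefSeq gene models. Figures were drawn with matplotlib 3.10.9 (Python 3.11.15).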

Additional observations from a re-analysis of the deposited data

Results flagged for a closer look

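XTH22 was flagged because the libraries of the genotypes stood on opposite sides at the 2 leaf ages. Under water deficit the log2 difference of gtl1-4 from Col-0 was -1.19 in emerging leaves, where all 3 gtl1-4 libraries lay below all 3 Col-0 libraries. In expanding leaves it was 1.44, where all 3 gtl1-4 libraries lay above all 3 Col-0 libraries. That separation rests on few reads, 4, 3 and 9 recovered in Col-0 and 21, 31 and 8 in gtl1-4, before scaling by library. The first passed the threshold (limma adjusted p 0.0041) and the second did not (limma adjusted p 0.831). The difference between the ages was not tested, because each leaf age was fitted on its own.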

How the results depend on the processing

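No member's call changed direction under any alternative run. The number of touch genes called under water deficit in emerging Col-0 leaves went from 3 to 1 with nuclear total scaling and with no variance trend, each time leaving XTH22. It went to 4, with XTH23 added, with pseudocount 5, quantile scaling, array weights, only the 2 groups compared and limma-voom weights, and ranged from 1 to 4 with 1 library left out. In emerging gtl1-4 leaves it was 2 with only the 2 groups compared, where CML24 was lost, and with a mean of at least 50, which removes XTH23, and 3 in every other alternative (3 to 3 with 1 library left out). Between genotypes in water-deficit emerging leaves it went from 1 to 2 with quantile scaling and to 0 with only the 2 groups compared and with limma-voom weights (1 to 2 with 1 library left out). In expanding leaves under water deficit it was 2 in Col-0 (2 to 3 with 1 library left out). In gtl1-4 it went from 4 to 1 with no low-value filter and with no variance trend, to 2 with a mean of at least 50 and with limma-voom weights, and to 3 with pseudocount 0.5 and nuclear total scaling (0 to 4 with 1 library left out). In well-watered expanding leaves it ranged from 0 to 1 between genotypes. The other comparisons stayed at 0. Leaving out the 2 libraries farthest from their groups at each age, an alternative chosen after seeing the data, gave 4 calls in emerging Col-0 leaves and the same count as with all libraries in every other comparison. The cause of these moves was not tested, except that a mean of at least 50 removes WRKY40 and ZAT10.

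Libraries of the same replicate number were not more alike than others, and whether they were grown or harvested together is not stated. Same-numbered libraries of different groups had residual correlations of -0.28 to 0.20 in emerging and -0.16 to 0.13 in expanding leaves. For libraries of different numbers and groups these were -0.20 to 0.33 and -0.20 to 0.23. With a replicate block 2 touch genes were called in emerging Col-0 leaves, where CML24 had an adjusted p of 0.0522, and every other count was the same as without the block. Genes averaging under 10 normalized counts over the 12 libraries, WRKY40, ZAT10 and ZAT12 in emerging and XTH23 and ZAT12 in expanding leaves, were not tested. The size of a decrease to a group mean under 10 is imprecise. This holds for XTH23 and CML12 in emerging gtl1-4, XTH22 and CML23 in expanding Col-0, and WRKY40 and ZAT10 in expanding leaves of both genotypes.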
